A study of Mus musculus with 8 samples.

Results

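The 10 genes described here encode MLL and AF10, the parts of the MLL-AF10 fusion, and cofactors or paralogues linked to them. The genes are Kmt2a (MLL), Mllt10 (AF10), Dot1l, Mllt6 (AF17), Men1 (menin), Psip1 (LEDGF), Mllt1 (ENL), Mllt3 (AF9), Aff1 (AF4) and Aff4 (AF5q31). They were chosen by name, without a rule on their measured values but with earlier results of these data known. They are 10 of the 24421 gene symbols in the deposited count table. MLL is a histone H3 methyltransferase whose amino-terminal part, kept in leukaemic fusions, is held on chromatin by menin and LEDGF. AF10 and its paralogue AF17 bind DOT1L, the histone H3 methyltransferase that marks transcribed genes. ENL and AF9 are paralogous readers of acylated histones that join DOT1L or the AF4 family scaffolds, which carry the elongation kinase P-TEFb.

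RNA was sequenced from C57BL/6 mouse bone marrow cells that carry MLL-AF10, cultured in methylcellulose medium with SCF, IL-3 and GM-CSF. MATIP cells (Tip60 flox/flox with Cre-ERT2) were treated for 4 days with 100 nM 4-OHT, the tamoxifen metabolite that activates Cre-ERT2, or with its solvent EtOH. MAflox cells (MLL-AF10 flox) were treated in the same 2 ways, with 2 libraries in each of the 4 groups. Both lines are labelled as MLL-AF10 cells and share the strain and the medium, and there is no line without the fusion for comparison. The labels do not say what is floxed in MAflox cells beyond that name, whether MAflox cells carry Cre-ERT2, whether a line is 1 clone, or whether replicates were grown apart, so the tests speak to the scatter among these libraries, which may be technical. Counts per gene do not separate the endogenous Kmt2a and Mllt10 transcripts from fusion transcripts, so whether the fusion was still expressed in each group was not measured. The labels do not give the species of the fusion's sequence.

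Libraries held 41101309 to 57312490 counts, and levels are given in CPM, the counts scaled to a common library size with TMM factors, or in CPM per kilobase of exon where genes are compared. Kat5, which encodes TIP60, had 8.11 and 8.32 CPM in MATIP cells with 4-OHT and 41.1 and 41.2 CPM with EtOH, and 57.5 and 62.5 CPM in MAflox cells with 4-OHT and 43.7 and 41.2 CPM with EtOH. The exons of Kat5 share 426 bases, 12.14% of their length, with Rnaseh2c on the opposite strand. Whether counting used strand is not given, so some of these counts may not be of Kat5. The leukocyte and myeloid markers Ptprc, Spi1, Cebpa and Itgam summed to 634 to 2590 CPM over the 8 libraries. The summed level of 8 mature neutrophil markers was 31200 to 34700 CPM with 4-OHT and 702 to 828 CPM with EtOH in MATIP cells, and 47600 to 51100 CPM with 4-OHT and 187 to 194 CPM with EtOH in MAflox cells. The sum of 8 monocyte and macrophage markers was 18100 to 19200 CPM with 4-OHT and 368 to 397 CPM with EtOH in MATIP cells, and 4880 to 5000 CPM with 4-OHT and 248 to 264 CPM with EtOH in MAflox cells. Over 4 B cell markers the summed level was 0.0454 to 0.853 CPM across the libraries. Over 4 T cell markers it was 0.924 to 1.14 CPM with 4-OHT and 4.0 to 5.79 CPM with EtOH in MATIP cells. In MAflox cells the T cell sum was 4.77 to 5.64 CPM with 4-OHT and 6.15 to 7.36 CPM with EtOH. Of these lists Pax5 and Cd3e, which mark B and T cells, were at 0 counts in every group. The sum of 8 myeloid progenitor markers was 4520 to 4810 CPM with 4-OHT and 14700 to 15100 CPM with EtOH in MATIP cells, and 8600 to 8730 CPM with 4-OHT and 8700 to 8890 CPM with EtOH in MAflox cells. By the test described below, 1 of these 8 was called higher and 7 lower with 4-OHT in MATIP cells. In MAflox cells 3 were called higher and 4 lower, so the near-equal sums there do not mean unchanged markers. Of all tested genes 37.5% were called higher and 38.6% lower in MATIP cells, and 33.1% and 32.1% in MAflox cells. The sum of 4 stromal markers was 7.82 to 9.78 CPM with 4-OHT and 1.56 to 1.87 CPM with EtOH in MATIP cells, and 1.11 to 2.22 CPM with 4-OHT and 0.954 to 1.25 CPM with EtOH in MAflox cells. The part of these marker differences in the results below was not tested. In bulk RNA, fewer cells of a type and less RNA per cell cannot be told apart.

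Promoter sequences are shown for Kmt2a, Dot1l and Mllt6, chosen after their values were seen as examples of genes whose 4-OHT responses were called different between the lines, which was also called for Men1, Mllt10, Psip1, Mllt3 and Aff1. The differences of Kmt2a and Dot1l were not called with either form of the length and GC offset described below, nor that of Psip1 with the centred form. MLL binds unmethylated CG dinucleotides through its CXXC domain, so the CG dinucleotides are in capitals. Each window of 300 bases spans the start of the gene in RefSeq (GRCm38.p6), 5′ to 3′ on the gene's own strand.
Kmt2a, chr9:44881240-44881539, minus strand: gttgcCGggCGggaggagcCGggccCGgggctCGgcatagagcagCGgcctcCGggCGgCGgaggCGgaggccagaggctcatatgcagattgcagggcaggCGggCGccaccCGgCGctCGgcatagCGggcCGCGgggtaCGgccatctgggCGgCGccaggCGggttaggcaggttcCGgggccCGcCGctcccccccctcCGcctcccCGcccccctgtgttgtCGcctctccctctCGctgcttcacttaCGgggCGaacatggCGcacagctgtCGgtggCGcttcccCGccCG
Dot1l, chr10:80754953-80755252, plus strand: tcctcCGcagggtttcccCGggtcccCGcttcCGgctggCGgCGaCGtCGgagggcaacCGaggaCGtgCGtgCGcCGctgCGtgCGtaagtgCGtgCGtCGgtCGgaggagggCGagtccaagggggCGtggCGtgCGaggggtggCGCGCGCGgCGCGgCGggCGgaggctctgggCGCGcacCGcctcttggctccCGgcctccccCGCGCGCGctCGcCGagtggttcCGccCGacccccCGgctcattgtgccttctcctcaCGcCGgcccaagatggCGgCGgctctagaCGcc
Mllt6, chr11:97663162-97663461, plus strand: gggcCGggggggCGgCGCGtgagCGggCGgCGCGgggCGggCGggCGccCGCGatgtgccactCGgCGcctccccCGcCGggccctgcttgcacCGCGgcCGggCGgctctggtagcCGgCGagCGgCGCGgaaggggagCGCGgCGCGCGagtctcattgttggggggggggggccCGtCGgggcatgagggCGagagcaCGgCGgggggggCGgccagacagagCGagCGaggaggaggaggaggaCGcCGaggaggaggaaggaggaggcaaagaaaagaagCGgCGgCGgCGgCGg
The windows held 36 CG dinucleotides for Kmt2a, 49 for Dot1l and 46 for Mllt6, each searched as the letters CG, which read the same on both strands. Over 32851 RefSeq promoter windows of 300 bases the median was 7 and the quartiles were 3 and 20. The shown windows all held more than that upper quartile. Those of Dot1l and Mllt6 are among the most CG-rich of these genes, while Kmt2a held fewer than windows of Mllt1, Aff4, Mllt10 and Aff1. The windows of Mllt1 and Aff4, whose responses were not called different without the offsets, held 46 and 44, and Aff1 had windows of 40 and 22. The windows of Men1 held 11, 16 and 16, those of Mllt10 7, 6 and 43 and those of Mllt3 4 and 29. A CG count is a description of the window and no measure of binding or methylation, neither of which was assayed. Of the 10 genes 9 had an entry in the promoter table.

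All 10 genes passed the filter on low counts. In MATIP cells with 4-OHT, Mllt6, Mllt3, Aff1 and, by a call that several settings described below end or turn round, Kmt2a rose, and Men1, Psip1, Mllt1, Mllt10 and Dot1l fell, while Aff4 did not pass the test. In MAflox cells with 4-OHT none of the 10 rose and 9 fell, with Mllt3 the one that did not pass. A gene was called at an adjusted p under 0.05 (edgeR quasi-likelihood test, Benjamini-Hochberg over 13722 genes). In MATIP cells 76.1% of all tested genes were called, 37.5% higher and 38.6% lower, so 9 of 10 called is not far above the background. In MAflox cells 65.2% were called, 33.1% higher and 32.1% lower. The median log2 fold change of the 10 was -0.30 in MATIP cells, where that of all tested genes was 0.00, and -0.62 in MAflox cells, where that of all tested genes was 0.02.

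**Figure D1:**
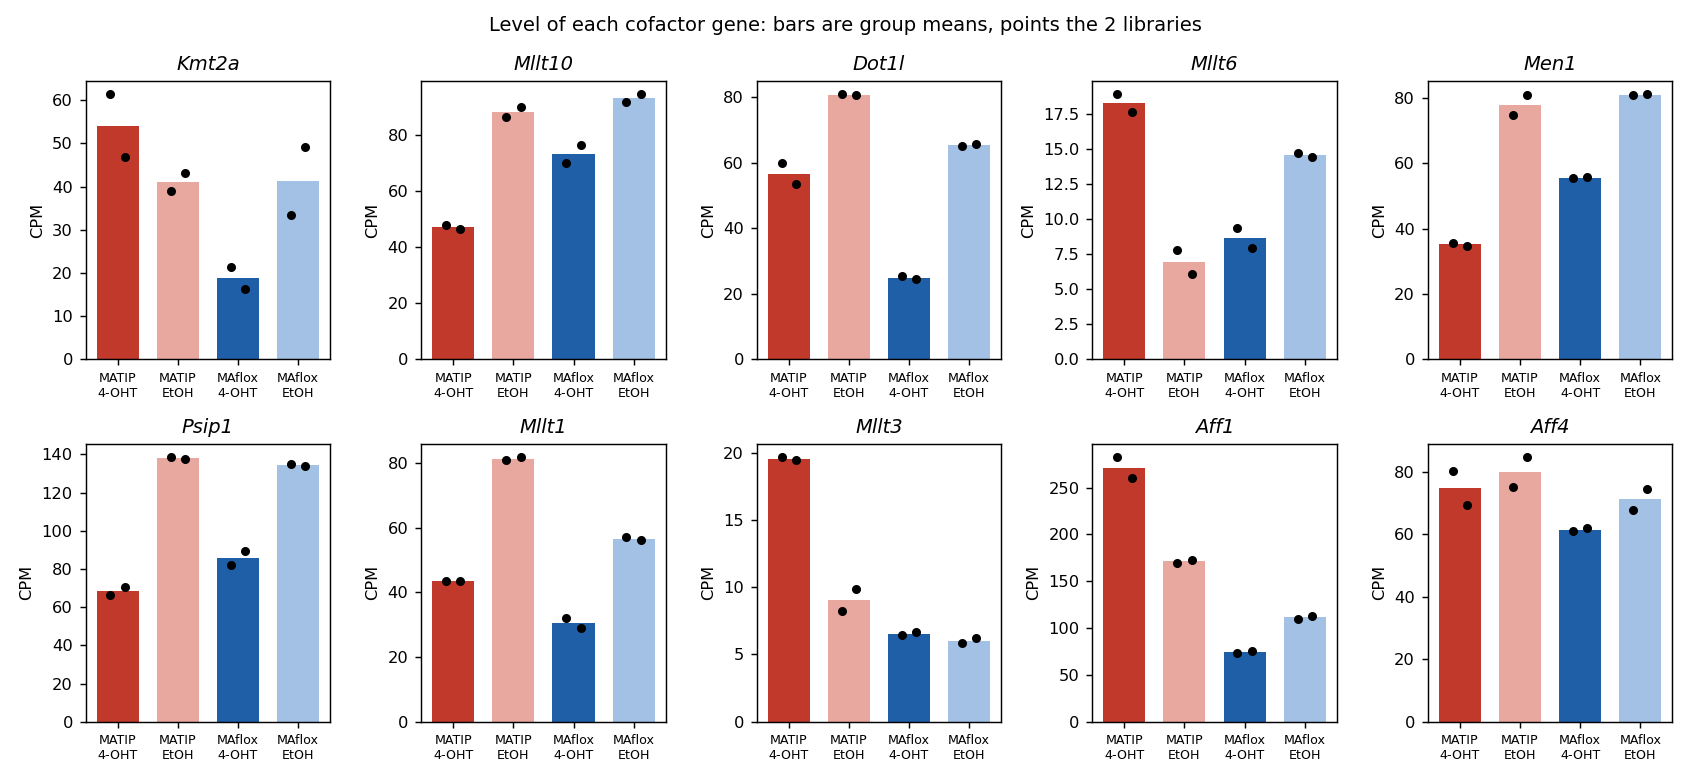
Level of each of the 10 genes in CPM (vertical axis, from 0) in the 4 groups; bars are means of 2 libraries and points the libraries. Mllt6, Mllt3 and Aff1 are highest in MATIP cells with 4-OHT, at means of 18.3, 19.5 and 271 CPM.

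Kmt2a, the MLL gene itself (chr9:44803355-44881296, minus strand, mm10), had 61.4 and 46.8 CPM in MATIP cells with 4-OHT and 38.9 and 43.2 CPM with EtOH. It had 21.4 and 16.2 CPM in MAflox cells with 4-OHT and 33.4 and 49.2 CPM with EtOH. The 4-OHT and EtOH libraries did not overlap in either line, but replicates lay farther apart than for most of the other genes. The log2 fold change was 0.40 ± 0.15 (SE) in MATIP cells (edgeR adjusted p = 0.0207) and -1.13 ± 0.16 in MAflox cells (edgeR adjusted p = 2.91e-06). The rise in MATIP cells was lost without the first 4-OHT library of that line (log2 0.23, edgeR adjusted p = 0.252), without its first EtOH library (log2 0.32, edgeR adjusted p = 0.0792) and by the DESeq2 Wald test (log2 0.47, adjusted p = 0.120). With each library's trend on transcript length and GC content taken out by least squares it became a called fall (log2 -0.29, edgeR adjusted p = 0.0267). In that setting the median log2 fold change of all tested genes in MATIP cells was -0.35, below that of Kmt2a. The authors' deposited table gives Kmt2a a log2 fold change of 0.44 and an adjusted p of 0.000798 for this comparison.

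Mllt10, whose product recruits DOT1L (chr2:18055237-18212388, plus strand, mm10), had 48.1 and 46.5 CPM in MATIP cells with 4-OHT and 86.7 and 90.2 CPM with EtOH. It had 70.2 and 76.6 CPM in MAflox cells with 4-OHT and 91.8 and 94.7 CPM with EtOH. Both lines were lower with 4-OHT and no library overlapped. Mllt10 fell by 0.90 ± 0.06 on the log2 scale in MATIP cells (edgeR adjusted p = 1.75e-10) and by 0.35 ± 0.06 in MAflox cells (edgeR adjusted p = 8.38e-05). Its exons share 749 bases, 12.68% of their length, with Dnajc1 on the opposite strand, and whether counting used strand is not given in the sources used here.

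Mllt6, which encodes AF17 (chr11:97663414-97685463, plus strand, mm10), moved in opposite directions in the lines. It had 18.9 and 17.6 CPM in MATIP cells with 4-OHT and 7.76 and 6.10 CPM with EtOH. It had 9.32 and 7.92 CPM in MAflox cells with 4-OHT and 14.7 and 14.5 CPM with EtOH. The log2 fold change was 1.40 ± 0.13 in MATIP cells (edgeR adjusted p = 9.36e-09) and -0.76 ± 0.13 in MAflox cells (edgeR adjusted p = 4.29e-05). The Mllt10 to Mllt6 ratio of CPM per kilobase was 3.27 ± 0.08 in MATIP cells with 4-OHT and 16.4 ± 3.2 with EtOH (SD, n = 2). It was 10.9 ± 1.9 in MAflox cells with 4-OHT and 8.07 ± 0.28 with EtOH (SD, n = 2).

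Dot1l, the methyltransferase recruited by AF10 (chr10:80755206-80795461, plus strand, mm10), had 59.9 and 53.3 CPM in MATIP cells with 4-OHT and 80.9 and 80.6 CPM with EtOH. In MAflox cells it had 25.3 and 24.5 CPM with 4-OHT and 65.1 and 65.5 CPM with EtOH. Dot1l was lower with 4-OHT in both lines, without overlap. It fell by 0.51 ± 0.07 on the log2 scale in MATIP cells (edgeR adjusted p = 1.39e-06) and by 1.39 ± 0.07 in MAflox cells (edgeR adjusted p = 3.18e-12).

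Men1 and Psip1 encode the chromatin tethers of MLL, and both fell in both lines. Men1 (chr19:6334979-6340891, plus strand, mm10) had 35.7 and 34.6 CPM in MATIP cells with 4-OHT and 74.9 and 81.0 CPM with EtOH, and 55.6 and 55.7 CPM in MAflox cells with 4-OHT and 81.0 and 81.2 CPM with EtOH. It fell by 1.15 ± 0.07 on the log2 scale in MATIP cells (edgeR adjusted p = 5.80e-12) and by 0.54 ± 0.06 in MAflox cells (edgeR adjusted p = 4.17e-07). Neither line's treated libraries overlapped the EtOH ones. Psip1 (chr4:83455680-83486459, minus strand, mm10) had 66.5 and 70.5 CPM in MATIP cells with 4-OHT and 138.6 and 137.6 CPM with EtOH, and 82.1 and 89.2 CPM in MAflox cells with 4-OHT and 134.9 and 133.7 CPM with EtOH. It fell by 1.01 ± 0.06 in MATIP cells (edgeR adjusted p = 1.25e-11) and by 0.65 ± 0.06 in MAflox cells (edgeR adjusted p = 1.46e-08). The exons of Psip1 share 483 bases with Snapc3 on the opposite strand, which applies to its counts as to those of Mllt10.

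The paralogous readers ENL and AF9 parted. Mllt1 (ENL; chr17:56892611-56935415, minus strand, mm10) had 43.3 and 43.5 CPM in MATIP cells with 4-OHT and 80.8 and 81.8 CPM with EtOH, and 32.1 and 29.0 CPM in MAflox cells with 4-OHT and 57.0 and 56.0 CPM with EtOH. It fell by 0.91 ± 0.07 on the log2 scale in MATIP cells (edgeR adjusted p = 3.97e-10) and by 0.88 ± 0.07 in MAflox cells (edgeR adjusted p = 1.51e-09), nearly the same size in each. Mllt3 (AF9; chr4:87769925-88033364, minus strand, mm10) had 19.7 and 19.4 CPM in MATIP cells with 4-OHT and 8.24 and 9.85 CPM with EtOH, and 6.45 and 6.66 CPM in MAflox cells with 4-OHT and 5.81 and 6.25 CPM with EtOH. It rose by a log2 of 1.11 ± 0.12 in MATIP cells (edgeR adjusted p = 1.14e-07), and the value in MAflox cells was 0.12 ± 0.13 (edgeR adjusted p = 0.463). Per kilobase, the level of Mllt1 over that of Mllt3 was 6.81 ± 0.08 in MATIP cells with 4-OHT and 27.8 ± 3.3 with EtOH (SD, n = 2). In MAflox cells this ratio was 14.3 ± 1.4 with 4-OHT and 28.8 ± 1.8 with EtOH (SD, n = 2). The treated libraries were the lower ones in both lines. The size of the ratio depends on the length used, since the exon union of Mllt3 is 12004 bases and its longest transcript 6069.

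**Figure D2:**
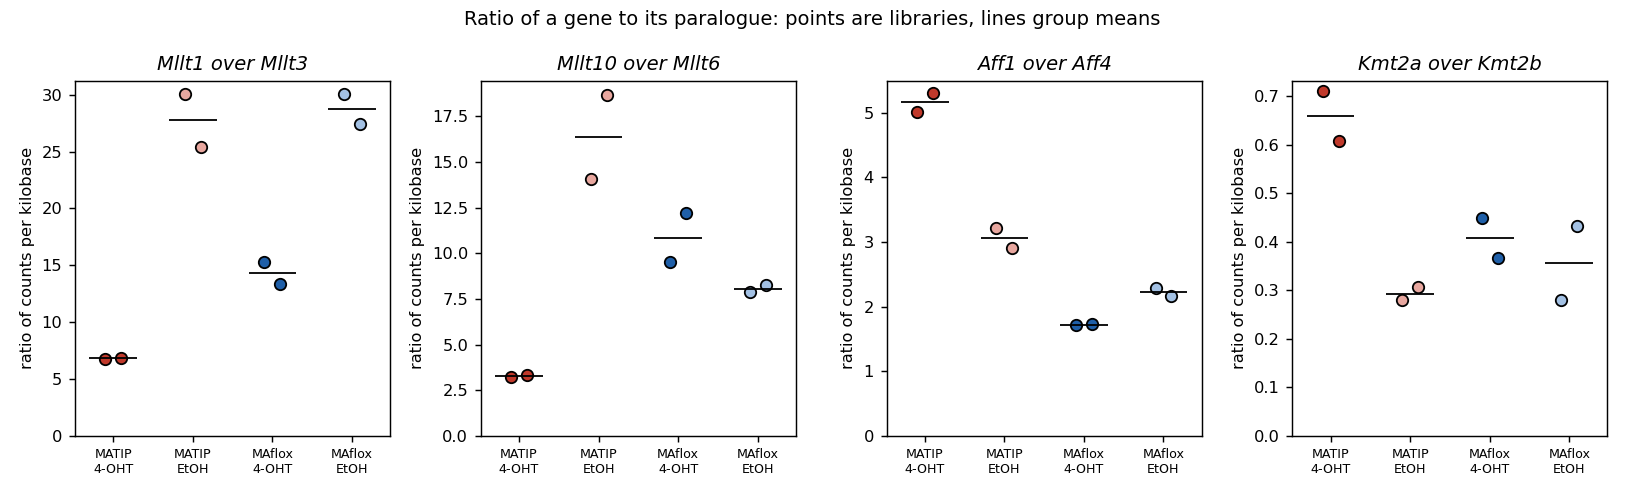
Ratio of CPM per kilobase of each gene to its paralogue (vertical axis, from 0) in the 4 groups; points are libraries and lines means of 2. The ratio of Mllt1 to Mllt3 averages 6.81 in MATIP cells with 4-OHT and 27.8 with EtOH. The pairs were chosen after the values were seen.

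Aff1 and Aff4 encode AF4 and AF5q31, the scaffolds of the super elongation complex. Aff1 (chr5:103692374-103855322, plus strand, mm10) had 282.7 and 259.8 CPM in MATIP cells with 4-OHT and 169.9 and 173.1 CPM with EtOH, and 73.4 and 75.1 CPM in MAflox cells with 4-OHT and 109.4 and 113.3 CPM with EtOH. The treated libraries were the highest in one line and the lowest in the other. The log2 fold change was 0.66 ± 0.06 in MATIP cells (edgeR adjusted p = 3.34e-09) and -0.59 ± 0.06 in MAflox cells (edgeR adjusted p = 4.88e-08). Aff4 (chr11:53350833-53421830, plus strand, mm10) had 80.2 and 69.6 CPM in MATIP cells with 4-OHT and 75.2 and 84.8 CPM with EtOH, which overlap. In MAflox cells it had 61.0 and 62.0 CPM with 4-OHT and 68.0 and 74.6 CPM with EtOH. The Aff4 log2 fold change was -0.10 ± 0.08 in MATIP cells (edgeR adjusted p = 0.258) and -0.21 ± 0.08 in MAflox cells (edgeR adjusted p = 0.0215). The fall in MAflox cells missed the threshold without either 4-OHT library of that line (edgeR adjusted p = 0.106 and 0.0930), without its second EtOH library (edgeR adjusted p = 0.202) and with a stricter low-count filter (edgeR adjusted p = 0.0566).

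Levels per kilobase put Aff1 first in MATIP cells with 4-OHT, at 28.7 ± 1.7 CPM per kilobase, and Psip1 first in the other 3 groups, at 27.2 ± 0.1 in MATIP cells with EtOH, 16.9 ± 1.0 in MAflox cells with 4-OHT and 26.4 ± 0.2 in MAflox cells with EtOH (SD, n = 2). Aff1 took 31.92% ± 0.70 of the summed CPM per kilobase of the 10 genes in MATIP cells with 4-OHT and 15.02% ± 0.10 with EtOH. It took 11.26% ± 0.03 in MAflox cells with 4-OHT and 10.97% ± 0.13 with EtOH. Per kilobase of the exon union, Mllt3 was last in all 4 groups. It was at 1.63 and 0.753 CPM per kilobase in MATIP cells with 4-OHT and EtOH, and at 0.546 and 0.502 in MAflox cells. Its exon union is 12004 bases and its longest transcript 6069, where those of Mllt6 are 7451 and 7274. The last place of Mllt3 thus depends on the length used. Libraries of neighbours in the order overlapped for Mllt1 and Men1 and for Mllt6 and Mllt3 in MATIP cells with EtOH, and for Aff1 and Mllt1 and for Mllt6 and Kmt2a in MAflox cells with 4-OHT, so these pairs have no order.

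The difference of the responses, MATIP minus MAflox, was tested directly. It was called for 8 of the 10 genes, higher for Mllt6, Kmt2a, Aff1, Mllt3 and Dot1l and lower for Men1, Mllt10 and Psip1. Over all tested genes 61.9% were called, 28.3% higher and 33.6% lower. The log2 difference was 2.16 ± 0.18 for Mllt6 (edgeR adjusted p = 6.97e-09), 1.53 ± 0.21 for Kmt2a (edgeR adjusted p = 4.59e-06) and 1.25 ± 0.08 for Aff1 (edgeR adjusted p = 2.12e-10). It was 0.99 ± 0.18 for Mllt3 (edgeR adjusted p = 0.000103) and 0.88 ± 0.10 for Dot1l (edgeR adjusted p = 2.93e-07). Men1 differed by -0.61 ± 0.09, Mllt10 by -0.56 ± 0.09 and Psip1 by -0.36 ± 0.09, the least sure of the 3 (edgeR adjusted p = 0.00110). Mllt1 at -0.02 ± 0.10 and Aff4 at 0.12 ± 0.11 were not called (edgeR adjusted p = 0.874 and 0.369), which does not show that the lines respond alike.

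With EtOH alone, MATIP and MAflox cells already differed in 5 of the 10 genes, 4 higher and 1 lower in MATIP, where 32.0% of all tested genes were called, 20.3% higher and 11.7% lower. Aff1 was higher by a log2 of 0.62 ± 0.06 (edgeR adjusted p = 9.76e-08), Mllt3 by 0.59 ± 0.13 (edgeR adjusted p = 0.00177), Mllt1 by 0.53 ± 0.07 (edgeR adjusted p = 6.11e-06) and Dot1l by 0.31 ± 0.07 (edgeR adjusted p = 0.00180). Mllt6 was lower, at -1.08 ± 0.13 (edgeR adjusted p = 3.18e-06). With 4-OHT, in contrast, Mllt6 averaged 18.3 CPM in MATIP cells and 8.62 CPM in MAflox cells, a comparison that was not tested. Line and genotype cannot be told apart, since each genotype is 1 line.

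Transcript length moved with these results. Of the 10 genes 6 lie in the longest length quintile of tested genes and none in the shortest 2 quintiles; the longest annotated Kmt2a transcript, at 16470 bases, is longer than those of 99.8% of tested genes. In MAflox cells the median log2 fold change was -0.37 in the longest length quintile and 0.31 in the shortest, and in MATIP cells 0.09 in the longest and -0.03 in the shortest. The 4 genes that rose in MATIP cells are all in the longest length quintile. For the difference of the responses, MATIP minus MAflox, the median was 0.47 in the longest length quintile and -0.42 in the shortest. Mllt6, Kmt2a, Aff1, Mllt3 and Dot1l, whose differences were called higher, are all in the longest, as is Aff4, which was not called. Men1, Mllt10 and Psip1, called lower, are in shorter quintiles. Each library's trend of level on transcript length and GC content was therefore entered as an offset, in a least-squares form, and in a second form centred at 0 that was added after the values of the first had been seen, because the first moved the median of all genes by -0.35 in MATIP cells.

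**Figure D3:**
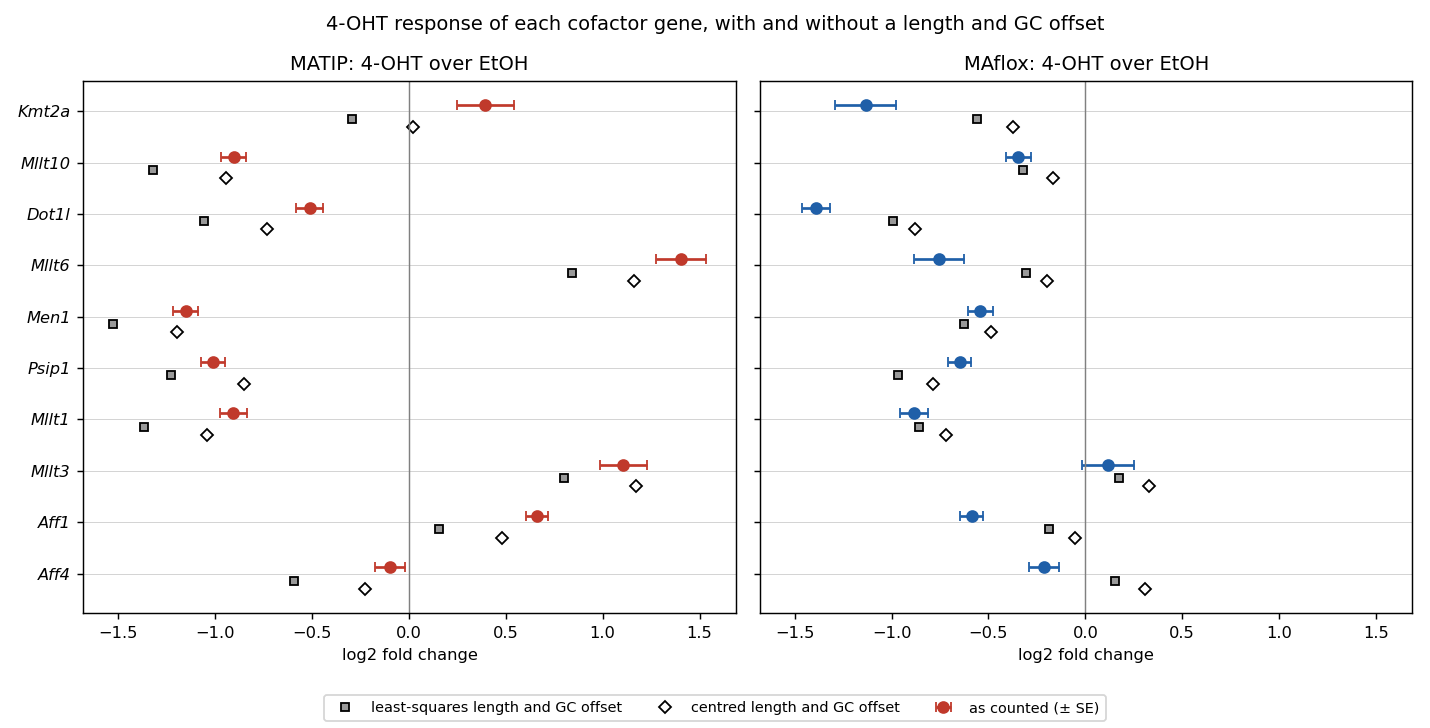
Log2 fold change, 4-OHT over EtOH (horizontal axis), of the 10 genes in MATIP and MAflox cells; filled circles with SE are the values as counted, squares and diamonds those with the least-squares and the centred offset. Kmt2a in MATIP cells stands at 0.40 as counted, -0.29 with the least-squares offset and 0.02 with the centred offset.

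Several calls did not survive the offset. The trend it takes out varied with the groups. The linear slope per doubling of length was -0.22 and -0.25 log2 in MAflox libraries with 4-OHT and -0.002 and 0.03 with EtOH. In MATIP libraries it was 0.17 and 0.13 with 4-OHT and 0.07 and 0.08 with EtOH. A technical trend and a response that varies with length cannot be told apart here, so a lost call need not be an artefact. Kmt2a in MATIP cells turned to -0.29 with the least-squares form (edgeR adjusted p = 0.0267) and was 0.02 with the centred form (edgeR adjusted p = 0.891). Its direction there thus varied with the form of the offset, in which length and GC content were not separated. In MAflox cells Kmt2a fell by less, at -0.56 and -0.37 in the 2 forms, both called. Its difference between lines was no longer called, at 0.26 and 0.39 (edgeR adjusted p = 0.186 and 0.0564), nor was that of Dot1l, at -0.07 and 0.15 (edgeR adjusted p = 0.569 and 0.163). Aff4 turned to a rise in MAflox cells, at 0.15 and 0.31 (edgeR adjusted p = 0.0397 and 0.000264), and its difference between lines to -0.74 and -0.53 (edgeR adjusted p = 5.46e-07 and 3.95e-05). In MAflox cells the falls of Mllt6 and Aff1 held with the first form, at -0.31 and -0.19, and not with the second, at -0.20 and -0.05 (edgeR adjusted p = 0.192 and 0.360).
Further calls came or went. The Psip1 difference between lines was -0.26 with the first form and -0.06 with the second (edgeR adjusted p = 0.00605 and 0.480), and that of Mllt1 was called, at -0.51 and -0.32 (edgeR adjusted p = 7.32e-05 and 0.00350). Aff4 in MATIP cells was called lower, at -0.59 and -0.22 (edgeR adjusted p = 4.41e-08 and 0.00280), and Mllt3 in MAflox cells was called higher with the centred form, at 0.33 (edgeR adjusted p = 0.0355). Between lines in EtOH, Dot1l missed the threshold with the centred form, at 0.16 (edgeR adjusted p = 0.0524), and Mllt10 passed it with the least-squares form, at -0.18 (edgeR adjusted p = 0.0225).
Other calls held in both forms. In MATIP cells Mllt6 was at 0.84 and 1.16, Mllt3 at 0.80 and 1.17 and Aff1 at 0.15 and 0.48, all called higher, and Men1, Psip1, Mllt1, Mllt10 and Dot1l were all called lower. The differences between lines of Mllt6, Mllt3, Aff1, Men1 and Mllt10 were also called in both forms, in the same direction.

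**Figure D4:**
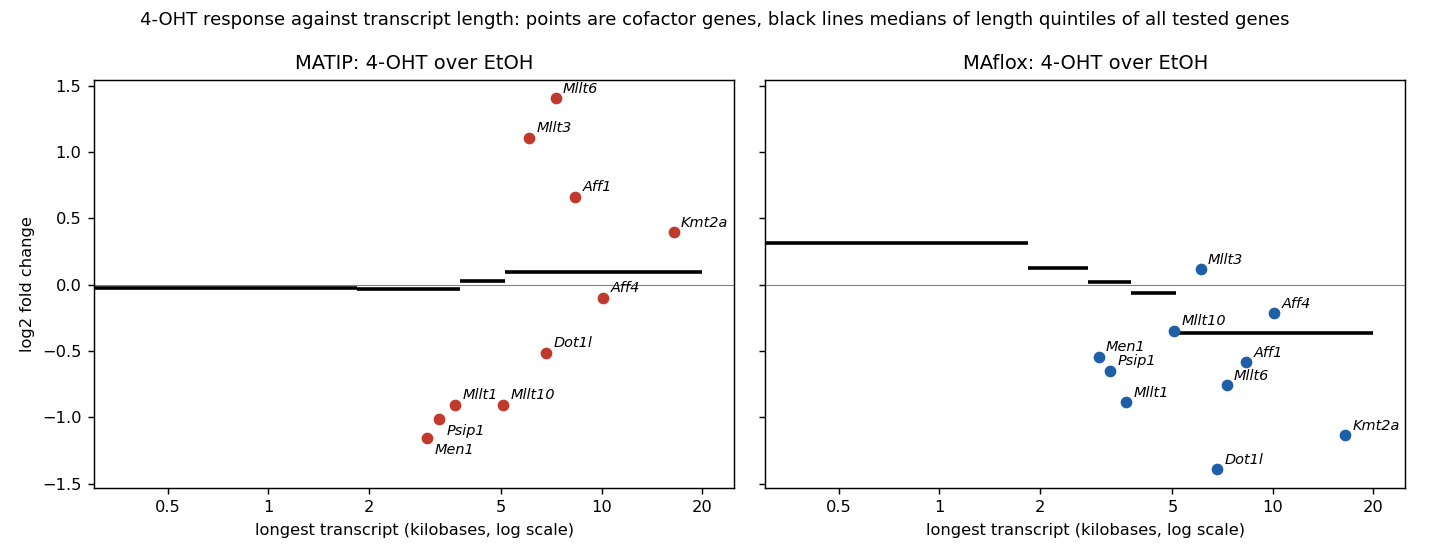
Log2 fold change, 4-OHT over EtOH (vertical axis), against the longest annotated transcript (horizontal log axis, kilobases); points are the 10 genes and black lines the medians of length quintiles of all tested genes, drawn only between 0.3 and 20 kilobases. In MAflox cells the medians run from 0.31 in the shortest length quintile to -0.37 in the longest.

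A further 38 genes of the same machinery were all tested. In MATIP cells 5 rose and 23 fell, with a median log2 of -0.32, where 37.5% of all tested genes were called higher and 38.6% lower. In MAflox cells 4 rose and 25 fell, with a median of -0.30, where 33.1% of all tested genes were called higher and 32.1% lower. The counts by role below are to be read against these shares, and with 1 to 8 genes a role they are descriptions. Among 5 other MLL-family and SET1 methyltransferases, 1 rose and 3 fell in MATIP cells and all 5 fell in MAflox cells. Setd1a, the catalytic subunit of a SET1 complex, averaged 56.1 CPM with 4-OHT and 119.7 CPM with EtOH in MATIP cells (log2 -1.10 ± 0.08, edgeR adjusted p = 9.40e-11). Kmt2b, the closest paralogue of MLL, averaged 26.5 CPM with 4-OHT and 67.2 CPM with EtOH in MAflox cells (log2 -1.34 ± 0.07, edgeR adjusted p = 9.17e-12). Kmt2c rose in MATIP cells by a log2 of 0.22 ± 0.08 (edgeR adjusted p = 0.0180), a call lost without the first 4-OHT library or either EtOH library of that line (edgeR adjusted p = 0.137, 0.0542 and 0.0640). It turned to a called fall of -0.45 with the least-squares offset (edgeR adjusted p = 8.70e-06) and to -0.10 with the centred one (edgeR adjusted p = 0.173).
Of 8 shared subunits and processing factors of MLL complexes, 7 fell in MATIP cells and none rose, where 38.6% of all tested genes were called lower. In MAflox cells 5 fell and 2 rose, where 32.1% were called lower and 33.1% higher, and the lines' counts were not tested against each other. Dpy30, a core subunit, averaged 34.3 CPM with 4-OHT and 119.9 CPM with EtOH in MATIP cells (log2 -1.81 ± 0.06, edgeR adjusted p = 1.83e-15). Hcfc1, which links these complexes to transcription factors, averaged 90.8 CPM with 4-OHT and 299.6 CPM with EtOH in MAflox cells (log2 -1.72 ± 0.07, edgeR adjusted p = 3.81e-14), while its paralogue Hcfc2 rose there by 0.57 ± 0.09 (edgeR adjusted p = 1.71e-05). The LEDGF paralogue Hdgfrp2 fell by 0.78 ± 0.06 in MATIP cells and by 0.45 ± 0.06 in MAflox cells (edgeR adjusted p = 1.60e-09 and 4.64e-06).

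**Figure D5:**
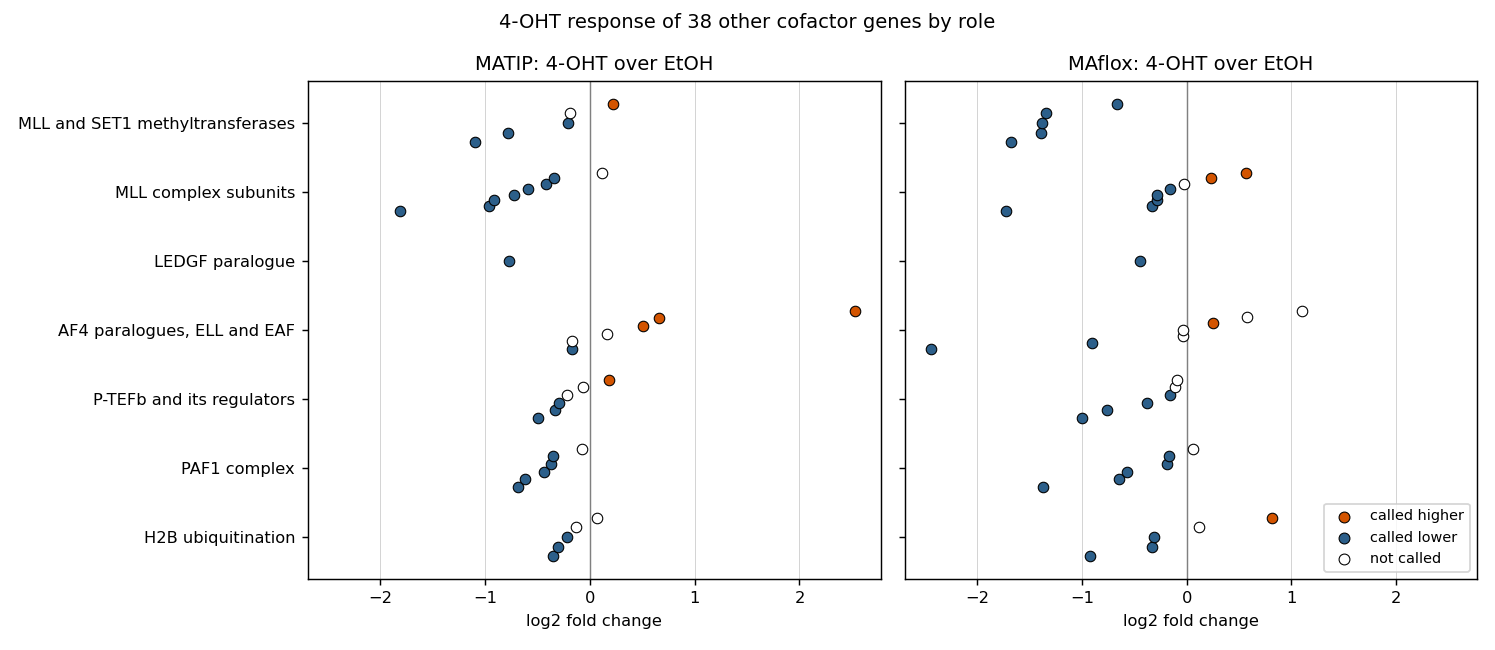
Log2 fold change, 4-OHT over EtOH (horizontal axis), of the 38 further genes by role (vertical axis) in MATIP and MAflox cells; each point is a gene, filled where called. Aff3 in MATIP cells, at 0 counts in both 4-OHT libraries, is not drawn. All 5 methyltransferases are called lower in MAflox cells.

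Among 7 AF4 paralogues and ELL and EAF factors, 3 rose and 1 fell in MATIP cells, and 1 rose and 2 fell in MAflox cells. The 3 of 7 higher in MATIP cells and the 2 of 7 lower in MAflox cells are near the shares of all tested genes, 37.5% and 32.1%. Ell2, an elongation factor of the super elongation complex, averaged 89.9 CPM with 4-OHT and 56.7 CPM with EtOH in MATIP cells (log2 0.66 ± 0.08, edgeR adjusted p = 1.74e-07). Eaf1 fell there by 0.17 ± 0.06 (edgeR adjusted p = 0.0156), a call lost under both other scalings and without either 4-OHT library or the second EtOH library of that line. Ell rose in MAflox cells by 0.25 ± 0.08 (edgeR adjusted p = 0.0130), a call lost without the second 4-OHT or the first EtOH library of that line and with the least-squares offset (log2 0.16, edgeR adjusted p = 0.0846). Aff3 averaged 0.984 CPM with 4-OHT and 5.41 CPM with EtOH in MAflox cells (log2 -2.44 ± 0.43, edgeR adjusted p = 6.35e-05), and was not called there by the DESeq2 Wald test (adjusted p = 0.166).
Of 6 genes of P-TEFb and its regulators, 1 rose and 3 fell in MATIP cells and 4 fell in MAflox cells. Larp7, which holds the inhibitory snRNP together, fell in MATIP cells by 0.49 ± 0.07 (edgeR adjusted p = 6.71e-06). Hexim1, the P-TEFb inhibitor, rose there by 0.18 ± 0.06 (edgeR adjusted p = 0.00936), a call lost without the first EtOH library of that line and turned to -0.19 with the least-squares offset. With that offset the median of all tested genes in MATIP cells was -0.35.
The PAF1 complex, which binds MLL fusions, had 5 of 6 genes lower and none higher in each line, where 38.6% of all tested genes were called lower in MATIP cells and 32.1% in MAflox cells. Its subunit Ctr9 fell by 0.69 ± 0.06 in MATIP cells and by 1.37 ± 0.07 in MAflox cells (edgeR adjusted p = 9.93e-09 and 1.07e-12). Of 5 genes of histone H2B ubiquitination, 3 fell in each line, and 1 rose, in MAflox cells. Ube2a, one of the conjugating enzymes, fell in MATIP cells by 0.35 ± 0.06 (edgeR adjusted p = 4.44e-05). In MAflox cells its paralogue Ube2b rose by 0.82 ± 0.06 (edgeR adjusted p = 3.38e-10) and the ligase subunit Rnf40 fell by 0.92 ± 0.07 (edgeR adjusted p = 4.72e-10).

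The genes whose log2(CPM + 1) followed Kmt2a most closely over the 8 libraries, of 9512 compared, were Ralgapb, Capn15 and Tsc1, with Pearson r of 0.99, 0.982 and 0.981. With the length and GC trend removed these were 0.53, 0.722 and 0.787 in the least-squares form and -0.031, 0.704 and 0.688 in the centred form. Those closest to Mllt10 were Cnot6, Oxnad1 and Zfp451, with r of 0.999, 0.998 and 0.998. After removal they were 0.998, 0.99 and 0.969 in the first form and 0.997, 0.981 and 0.951 in the second. Among the 10 genes Men1 was closest to Mllt10, with r of 0.989. The libraries share 4 groups, so these values are descriptions.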

How the data were processed

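Per the labels' protocols, total RNA from 8 samples was made into Illumina libraries. The submitters' processing notes name HISAT2 2.1.0 and build mm10, Trimmomatic 0.38.0, DESeq2, and featureCounts 1.6.4. The authors deposited whole-number read counts per gene, not normalized. Log2 fold changes of 4-OHT over EtOH in each line, and their adjusted p-values, were deposited in a second table. The count table has 23 empty columns.

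Groups came from the sample titles. Genes passing filterByExpr (minimum count 10, total 15) numbered 13722. Counts were scaled by TMM and tested by quasi-likelihood in edgeR 4.0.16 under R 4.3.3, fitting all 8 libraries with a coefficient for each group and no covariate. Each contrast's p-values had their own Benjamini-Hochberg adjustment, with calls at 0.05. The SE is the log2 fold change over the square root of F. Prior degrees of freedom were 14.3 and the common biological coefficient of variation 5.98%. The main test was also run on simulated counts in which a small part of the genes changed, in MATIP 4-OHT only, without a length trend. That setting differs from these data, so the run does not show how such trends or many changed genes affect the calls. Replicates of a group differed beyond counting noise, with chi-square per degree of freedom of 7.17 to 13.3. Kilobases are of the exon union in GENCODE M21, and promoters are RefSeq's.

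The length and GC offset is a spline trend (5 degrees of freedom each) per library, over the 96.2% of tested genes with both values. It was first run by least squares. The centred form, robust and with mean 0 in each library, was added after those values had been seen. The members and lists were chosen with earlier results of these data known. All 10 members and Kat5 are named, and of the other genes, per role and treatment contrast, the called gene with the smallest p in each direction. A gene that this rule names is not reported here. The other genes' single values were restricted to the contrast that names them after their values in the remaining contrasts had been seen. Alternatives were other size factors, DESeq2 1.42.0, filters, fewer libraries, the replicate block and the offsets.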

Additional observations from a re-analysis of the deposited data

Results flagged for a closer look

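The 4-OHT response differed between the lines, by the edgeR quasi-likelihood test of the difference itself, for Kat5 and 8 of the 10 genes. The log2 difference, MATIP minus MAflox, was -2.82 for Kat5, 2.16 for Mllt6, 1.53 for Kmt2a, 1.25 for Aff1, 0.99 for Mllt3, 0.88 for Dot1l, -0.61 for Men1, -0.56 for Mllt10 and -0.36 for Psip1. All of these except Kat5 stand against a background of 61.9% of tested genes called. The differences of Kmt2a and Dot1l were not called with either form of the length and GC offset, and that of Psip1 was not called with the centred form, at -0.06.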

How the results depend on the processing

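The replicate numbers in the titles mark nothing the labels state. Deviations of same-numbered libraries correlated by only -0.039 to 0.034, which showed no shared shift but cannot show that the samples were unpaired. With the replicate block 40 of 40 values of the 10 genes kept their direction and call, such as 0.40 for Kmt2a in MATIP cells. The length and GC offsets changed most. With the least-squares form the median of all genes went to -0.35 in MATIP and -0.17 in MAflox cells. That form kept 31 of 40, and the centred form kept 28 of 40. Least-squares and centred values (block added in parentheses) were 0.15 and 0.31 (0.15 and 0.31) for Aff4 in MAflox cells, -0.74 and -0.53 (-0.74 and -0.53) for its difference and -0.45 and -0.10 (-0.45 and -0.10) for Kmt2c in MATIP cells. With the least-squares form alone, Kmt2a in MATIP cells was -0.29 (block -0.29), Hexim1 there -0.19 (block -0.19), the Dot1l difference -0.065 (block -0.066) and Aff4 between lines in EtOH -0.016 (block -0.016). The r of Ralgapb with Kmt2a was -0.031 in the centred form. Genes called higher among the 10 in MAflox cells went to 1 and 2 in the 2 forms, against 0, with the same counts under the block. The differences called were 3 higher in both forms, against 5, and 5 lower with least squares, against 3; in EtOH, 2 were lower with least squares, against 1. Of the 38 other genes, 7 were higher in MAflox cells with the centred form, against 4, and 2 in MATIP cells with least squares, against 5. Their differences were 5 higher with least squares and 9 with the centred form (8 with the block), against 15, and 18 lower with least squares, against 10; in EtOH 5 were higher with least squares (6 with the block), against 10. Other scalings turned values that were not called. Aff4 in MATIP cells was 0.050 with upper-quartile factors, which moved the median of all genes there to 0.15, and 0.065 with the stricter filter. The Mllt1 difference was 0.051 with DESeq2 size factors and 0.051 with the DESeq2 Wald test, 0.11 with upper-quartile factors and 0.10 with the stricter filter. Psip1 between lines in EtOH was -0.038 with upper-quartile factors. Leaving out 1 library at a time gave -0.19 to 0.036 for Aff4 in MATIP cells, -0.077 to 0.085 for the Mllt1 difference and -0.26 to 0.30 for Kmt2a between lines in EtOH. It gave 3 to 7 other genes higher in MATIP cells (3 without its first EtOH library, against 5), and, between lines in EtOH, 5 to 11 higher (5 without the first MAflox EtOH library, against 10) and 2 to 4 lower. In EtOH, genes called lower numbered 2527 with upper-quartile factors, against 1608, and other genes lower numbered 6 with upper-quartile factors and 4 with DESeq2 size factors, the DESeq2 Wald test, no filter or only the 4 libraries compared, against 2. Single values of the other genes were recomputed only in the contrast that names them, a restriction made after many of their values in the difference and EtOH contrasts had been seen to turn. With 2 libraries a group, modest changes rest on the spread shared by all 4 groups.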
